A study of Homo sapiens with 112 samples.

Results

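TMPRSS2 and ERG are the partners of the most frequent gene fusion of prostate cancer. They were taken by symbol as the rows TMPRSS2 and ERG of a table of RNA-seq read counts, which makes 2 of 58684 genes listed, and both were read in every library. The libraries came from the human prostate cancer cell lines VCaP, which carries the TMPRSS2-ERG fusion (55 libraries), and LAPC4, which does not (57 libraries). Before treatment, every group spent 2 days without hormone, in 10% charcoal-stripped serum. They then received vehicle (DMSO), the synthetic androgen R1881 at 1 nM, or 1 nM R1881 together with the antiandrogen darolutamide at 500 nM or 2 µM, for 8 or 22 h. In VCaP the groups DMSO, R1881, 500 nM and 2 µM darolutamide held 10, 10, 4 and 5 libraries at 8 h and 8, 9, 4 and 5 at 22 h. In LAPC4 they held 10, 10, 5 and 5 libraries at 8 h and 7, 10, 5 and 5 at 22 h.

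TMPRSS2 encodes a type II transmembrane serine protease of luminal prostate cells, and its promoter and enhancer respond to androgen. ERG encodes a transcription factor of the ETS family that is normally active in endothelial and some blood-forming cells and is silent in prostate epithelium. In the fusion, the promoter and first exon of TMPRSS2 are joined to the coding exons of ERG, so that an ETS factor is made under androgen control. The comparisons ask how each partner responded to androgen and to its antagonist, whether both moved in proportion, and what TMPRSS2 did in a line without the fusion.

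In the GENCODE 44 annotation of GRCh38, TMPRSS2 (ENSG00000184012.14) lies on the minus strand at chr21:41464300-41531116. ERG (ENSG00000157554.20) lies on the same strand at chr21:38380027-38661780. The genes are 2802519 bases apart, and 16 protein-coding genes start between them. The representative TMPRSS2 transcript has 14 exons in 3450 bases, and that of ERG has 10 exons in 4904 bases. The counts are sums over a gene. Reads of fused and unfused transcripts can therefore not be told apart, and reads from the TMPRSS2 exon of a fusion transcript count toward TMPRSS2. The 3′ end of TMPRSS2 overlaps the antisense gene MX1 by 5772 bases, and 1 of 48 MX1 transcripts has an exon over a TMPRSS2 exon. ERG overlaps a long noncoding RNA gene on its own strand over 417 bases. On the opposite strand it overlaps another such gene over 39775 bases and a pseudogene over 177 bases. The strand setting of the counting is not given in the sources used here, so reads from these overlaps are uncertain.

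Unfused ERG transcripts start at promoters of the gene itself, which the fusion leaves out. They are shown because they are the sequences that a fusion transcript bypasses. The 3 windows come from RefSeq on GRCh38.p14 and are read on the minus strand. They lie at chr21:38660638-38660917, chr21:38584916-38585195 and chr21:38498475-38498754, and capitals mark the first 30 transcribed bases after 250 bases of promoter.
ERG promoter 1: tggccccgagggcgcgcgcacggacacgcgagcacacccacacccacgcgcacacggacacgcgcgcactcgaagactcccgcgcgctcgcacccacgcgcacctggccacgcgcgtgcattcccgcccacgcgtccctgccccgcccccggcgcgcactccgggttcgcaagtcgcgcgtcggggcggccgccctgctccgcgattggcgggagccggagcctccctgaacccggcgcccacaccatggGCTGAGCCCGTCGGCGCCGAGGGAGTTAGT
ERG promoter 2: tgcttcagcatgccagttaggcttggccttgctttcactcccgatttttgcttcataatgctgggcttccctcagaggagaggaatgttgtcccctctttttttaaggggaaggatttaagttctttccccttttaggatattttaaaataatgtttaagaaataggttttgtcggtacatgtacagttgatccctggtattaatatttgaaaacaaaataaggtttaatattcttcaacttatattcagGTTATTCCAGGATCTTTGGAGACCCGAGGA
ERG promoter 3: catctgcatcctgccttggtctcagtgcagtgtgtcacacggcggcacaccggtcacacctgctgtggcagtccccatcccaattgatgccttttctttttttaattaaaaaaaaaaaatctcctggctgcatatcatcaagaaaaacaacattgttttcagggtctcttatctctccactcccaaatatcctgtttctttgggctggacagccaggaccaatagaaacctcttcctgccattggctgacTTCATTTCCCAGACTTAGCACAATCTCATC
The windows differ in base composition, with 77.0% G and C over 300 bases at promoter 1, 38.7% at promoter 2 and 45.7% at promoter 3. Both strands of the 4 ERG windows in the table were searched for AGAACA (androgen response half-site), TGTTTAC (forkhead factors) and CCGGAA (ETS factors), and 0 of 4 held any of them. Of 35116 promoter windows of the same length, 14.8% held AGAACA, 3.42% TGTTTAC and 17.2% CCGGAA. The window that is not printed, chr21:38498428-38498727, overlaps most of that of promoter 3, so the 4 windows are not independent. The search covers these letters in these windows only.

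The libraries held 12188455 to 25201678 counted reads, with a median of 20144050.5. Levels below are CPM, that is read counts brought to a common library size, with factors from the trimmed mean of M values (TMM) within a cell line unless stated. Changes are log2 fold changes with standard errors from edgeR's quasi-likelihood test over all genes that passed the filter (19266 in VCaP, 18204 in LAPC4). A gene was called at a Benjamini-Hochberg adjusted p under 0.05. Luminal keratin and prostate markers were present in both lines, with KRT8 at 2833 to 27693 reads per library in VCaP and 6255 to 17581 in LAPC4, and HOXB13 at 2289 to 9293 and 3206 to 7742 reads. Within groups, a single component carried 61.7% of the variance between VCaP libraries and 74.8% between LAPC4 libraries. The study's methods give fewer biological replicates per condition than the control groups hold libraries, and the labels only number them, so p-values measure the spread between these libraries. In bulk RNA, fewer cells of a type and less RNA per cell cannot be told apart.

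ERG separated the lines. In LAPC4 it had 0 reads in 54 of 57 libraries and 1 read in the other 3, so it was not tested there. Scaled together with VCaP, a limit of 3 reads per library corresponds to 0.111 to 0.225 CPM in LAPC4. In the LAPC4 libraries with DMSO, the highest such limit on this scale was 0.146 CPM at 8 h and 0.147 CPM at 22 h. Against it, the mean ERG level of VCaP cells with DMSO was at least 916-fold higher at 8 h and at least 1045-fold higher at 22 h, and the lowest VCaP library at least 853-fold and 982-fold. Since ERG is an endothelial gene, markers of such cells were read in the same libraries. The summed level of 8 endothelial markers was 0.323 to 3.55 CPM in VCaP and 0.847 to 3.92 CPM in LAPC4. CDH5, the cadherin of endothelial junctions, had 0 reads in 53 of 55 VCaP libraries. PECAM1, an endothelial adhesion receptor, had 0 to 8 reads per VCaP library. VWF, a clotting factor carrier, was the only marker of the list tested in VCaP, and it rose with R1881 at 22 h by 2.68 on the log2 scale (SE 0.178), from 0.424 to 2.71 CPM.

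Without androgen, both partners were expressed in VCaP. TMPRSS2 with DMSO ranged from 50.4 to 57.9 CPM at 8 h (median 54.9, mean 54.7 ± 2.74 SD, n = 10). At 22 h it ranged from 66.1 to 76.3 CPM (median 69.9, mean 70.7 ± 3.47, n = 8). ERG with DMSO ranged from 117 to 131 CPM at 8 h (median 124, mean 123 ± 4.75, n = 10) and from 132 to 147 CPM at 22 h (median 141, mean 141 ± 4.47, n = 8). Neither gene overlapped between the times. The later libraries were higher by 0.37 (SE 0.0308) for TMPRSS2 (adjusted p = 7.38e-15) and by 0.19 (SE 0.0314) for ERG (adjusted p = 1.73e-06), against 29.8% of all genes called in this comparison.

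With R1881, both partners rose in VCaP, and TMPRSS2 rose more. TMPRSS2 ranged from 489 to 559 CPM at 8 h (median 536, mean 530 ± 22.2, n = 10) and from 1794 to 1943 CPM at 22 h (median 1880, mean 1873 ± 49.8, n = 9). All R1881 libraries lay above all DMSO libraries of their time. The log2 fold change was 3.28 (SE 0.0303, adjusted p = 1.14e-60) at 8 h, or 9.70-fold, and 4.73 (SE 0.0355, adjusted p = 3.96e-65) at 22 h, or 26.5-fold. In the order of rises over 19266 genes, TMPRSS2 was number 140 at 8 h and number 45 at 22 h.

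ERG with R1881 ranged from 562 to 727 CPM at 8 h (median 616, mean 634 ± 47.8, n = 10) and from 971 to 1067 CPM at 22 h (median 1008, mean 1007 ± 29.1, n = 9). Again no R1881 library overlapped a DMSO library of its time. The log2 fold change was 2.36 (SE 0.0305, adjusted p = 9.39e-54) at 8 h, or 5.15-fold, and 2.84 (SE 0.0342, adjusted p = 5.18e-55) at 22 h, or 7.15-fold. ERG was number 292 in the order of rises at 8 h and number 181 at 22 h. VCaP responded broadly, so being called is common: 66.9% of all genes were called at 8 h and 77.4% at 22 h.

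**Figure D1:**
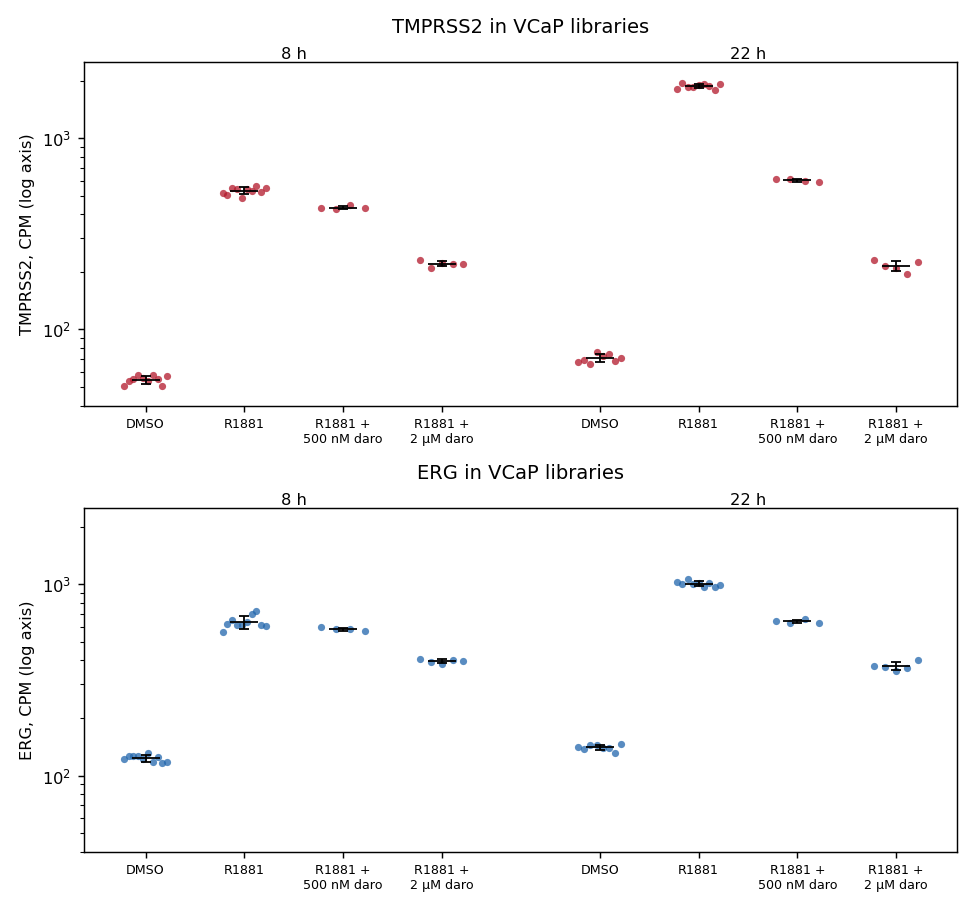
TMPRSS2 (top) and ERG (bottom) in each of 55 VCaP libraries, in CPM on a log axis, by treatment and time. Points are libraries and bars are group means with SD. TMPRSS2 runs from 50.4 CPM (DMSO, 8 h) to 1943 CPM (R1881, 22 h) and ERG from 117 to 1067 CPM, and of the groups of one time only 500 nM darolutamide and R1881 at 8 h overlap, for ERG.

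Most of the further rise with time was in TMPRSS2. Between R1881 libraries of 8 and 22 h, TMPRSS2 rose by 1.82 on the log2 scale and ERG by 0.67, where 71% of genes were called. The R1881 effect was larger at 22 than at 8 h by 1.45 for TMPRSS2 (SE 0.0418, adjusted p = 1.17e-35). For ERG the same interaction was 0.47 (SE 0.0432, adjusted p = 2.65e-14). This interaction was called for 60.4% of genes. For size, the androgen targets FKBP5, a co-chaperone of steroid receptors, and KLK3, which encodes prostate-specific antigen, rose at 22 h by 5.49 and 3.44.

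Darolutamide lowered both partners in VCaP in the order of its dose. All darolutamide libraries also received R1881, and all comparisons with R1881 alone share the same R1881 libraries. At 8 h with 500 nM, TMPRSS2 was at 432, 427, 445 and 429 CPM (mean 433 ± 8.28, n = 4), below every R1881 library. With 2 µM it was at 229, 211, 222, 220 and 219 CPM (mean 220 ± 6.79, n = 5), below every 500 nM library and above every DMSO library. Against R1881 these were log2 fold changes of -0.29 (SE 0.0365, adjusted p = 2.44e-09) for 500 nM and -1.27 (SE 0.0355, adjusted p = 1.81e-36) for 2 µM. Of all genes, 30.6% were called at the lower dose and 52.1% at the higher dose.

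ERG at 8 h with 500 nM was at 595, 582, 581 and 572 CPM (mean 583 ± 9.59, n = 4). These values lay within the range of the R1881 libraries, and the log2 fold change was -0.12 (SE 0.0383, adjusted p = 0.0108). The call was lost with library totals as the scaling (-0.05, adjusted p = 0.359) and in a fit of only the groups compared (-0.11, adjusted p = 0.148). With 2 µM, ERG was at 408, 395, 385, 401 and 399 CPM (mean 397 ± 8.44, n = 5), below all R1881 libraries, with a log2 fold change of -0.67 (SE 0.0363, adjusted p = 2.24e-23).

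At 22 h the separation was wider. TMPRSS2 was at 613, 613, 596 and 587 CPM with 500 nM (mean 602 ± 12.9, n = 4). It was at 230, 215, 210, 195 and 224 CPM with 2 µM (mean 215 ± 13.5, n = 5). No group of this time overlapped another, and the R1881 libraries, all at or above 1794 CPM, stood far above both doses. The log2 fold change against R1881 was -1.64 (SE 0.0397, adjusted p = 1.27e-38) with 500 nM, or 3.11-fold lower, where 53% of genes were called. With 2 µM it was -3.13 (SE 0.0395, adjusted p = 3.27e-53), or 8.72-fold lower, which was number 62 in the order of falls.

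ERG at 22 h was at 643, 630, 658 and 630 CPM with 500 nM (mean 640.1 ± 13.2, n = 4). It was at 375, 371, 352, 366 and 402 CPM with 2 µM (mean 373 ± 18.3, n = 5). Both doses lay below all R1881 libraries and above all DMSO libraries. The log2 fold change was -0.65 (SE 0.0398, adjusted p = 6.58e-21) with 500 nM, or 1.57-fold lower. With 2 µM it was -1.43 (SE 0.0381, adjusted p = 9.25e-38), or 2.70-fold lower, where 66.9% of all genes were called.

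The doses differed from each other for both genes. Between 2 µM and 500 nM, TMPRSS2 differed by -0.98 (adjusted p = 8.08e-27) at 8 h and by -1.49 (adjusted p = 1.68e-35) at 22 h. ERG differed by -0.55 (adjusted p = 1.06e-15) and -0.78 (adjusted p = 1.30e-21). Fewer genes were called here, 17.6% at 8 h and 20.2% at 22 h.

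Neither dose returned either partner to the DMSO level. With 500 nM, TMPRSS2 stayed above DMSO by 2.99 at 8 h and 3.09 at 22 h, and ERG by 2.24 and 2.19, where 44.9% and 62.7% of genes were called. With 2 µM, TMPRSS2 stayed above DMSO by 2.01 at 8 h and 1.60 at 22 h, and ERG by 1.69 and 1.41, where 27.5% and 59% of genes were called. The last values were 3.04-fold for TMPRSS2 and 2.65-fold for ERG. These comparisons share DMSO libraries with those of R1881 against DMSO.

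**Figure D2:**
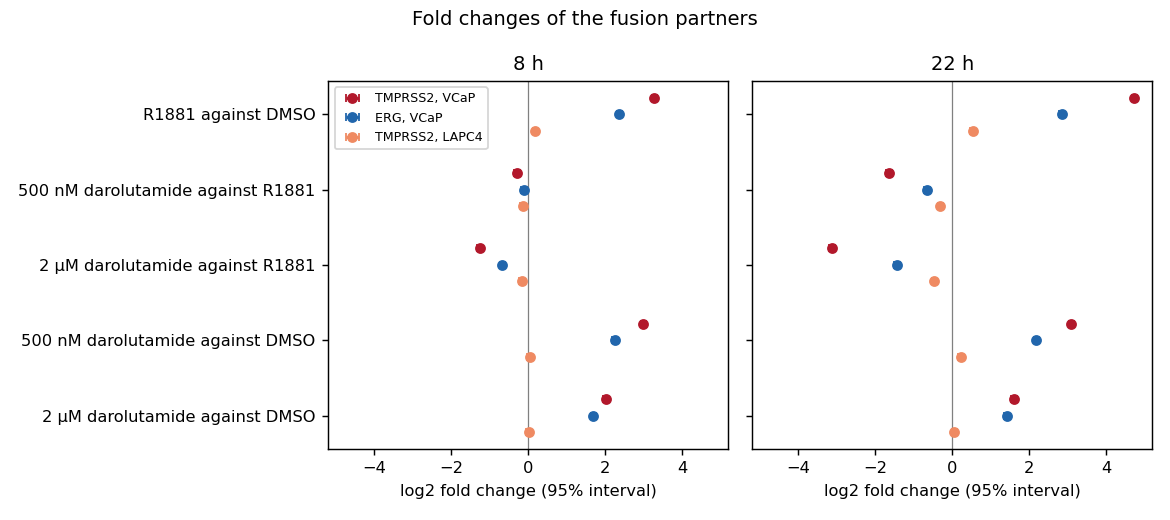
Log2 fold changes of TMPRSS2 and ERG in VCaP and of TMPRSS2 in LAPC4 for each comparison, with 95% intervals, from edgeR's quasi-likelihood fit. In VCaP the change of TMPRSS2 exceeds that of ERG in each comparison of R1881 with DMSO (4.73 against 2.84 at 22 h) and of 2 µM darolutamide with R1881 (-3.13 against -1.43 at 22 h), and LAPC4 stays between -0.48 and 0.52.

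The part of the R1881 effect that darolutamide removed was computed per library on the log2 CPM scale, where 0% is the R1881 mean and 100% the DMSO mean. For TMPRSS2 in VCaP it was 8.85% ± 0.836 (SD, n = 4) with 500 nM and 38.6% ± 1.36 (n = 5) with 2 µM at 8 h. At 22 h it was 34.6% ± 0.657 and 66.1% ± 1.95. For ERG it was 5.00% ± 1.00 and 28.4% ± 1.30 at 8 h, and 23.0% ± 1.05 and 50.5% ± 2.46 at 22 h. In every darolutamide library the share was larger for TMPRSS2 than for ERG. The difference within a library was 3.85 ± 1.26 percentage points with 500 nM and 10.3 ± 1.48 with 2 µM at 8 h. At 22 h it was 11.6 ± 1.26 and 15.7 ± 2.13 percentage points. The share depends on the scale: on linear CPM, 2 µM at 22 h removed 92.0% of the rise of TMPRSS2 and 73.1% of that of ERG.

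Reads of both genes within 1 library give a ratio in which library size cancels. The log2 ratio of ERG to TMPRSS2 reads with DMSO was 1.02 to 1.29 at 8 h (mean 1.17 ± 0.0928) and 0.91 to 1.12 at 22 h (mean 0.99 ± 0.0770), so ERG had more reads in every DMSO library. With R1881 it was 0.12 to 0.40 at 8 h (mean 0.26 ± 0.0945) and -0.98 to -0.80 at 22 h (mean -0.90 ± 0.0589). The order of the genes by reads was therefore turned around in all R1881 libraries of 22 h. In permutation tests over libraries, two-sided and adjusted over 14 comparisons, R1881 changed the ratio by -0.92 at 8 h (adjusted p = 0.000152) and by -1.89 at 22 h (exact, adjusted p = 0.000384).

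Darolutamide moved the ratio back toward that of DMSO. With 500 nM it was 0.43 ± 0.0349 at 8 h and 0.09 ± 0.0438 at 22 h, and with 2 µM 0.85 ± 0.0434 and 0.80 ± 0.0790. Against R1881, 2 µM changed the ratio by 0.60 at 8 h (exact permutation test, adjusted p = 0.00186) and by 1.69 at 22 h (adjusted p = 0.00219). With 500 nM the change was 0.17 at 8 h, where the ranges overlapped (exact permutation test, adjusted p = 0.00471), and 0.98 at 22 h (adjusted p = 0.00392). Against DMSO, the ratio with 2 µM remained lower by -0.32 at 8 h and -0.20 at 22 h (exact permutation test, adjusted p = 0.00186 and 0.00272). TMPRSS2 and ERG thus did not move in proportion in any of these comparisons.

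**Figure D3:**
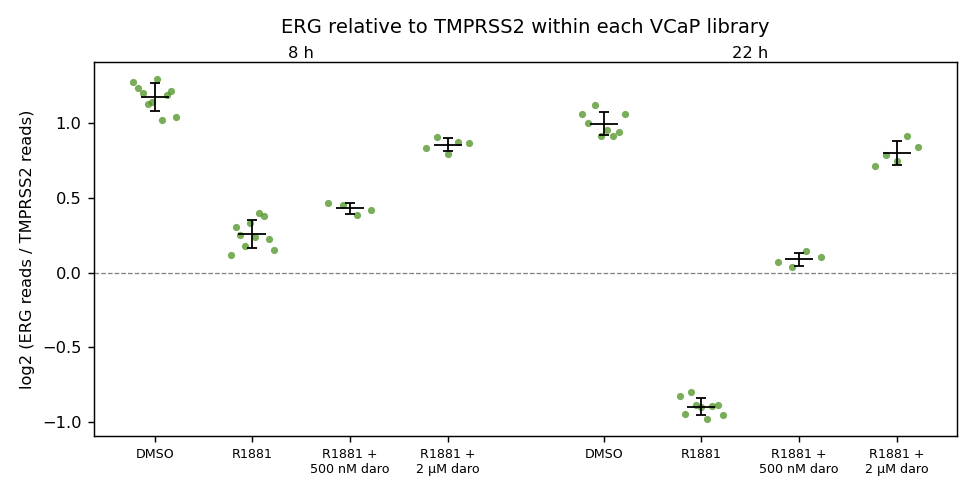
Log2 ratio of ERG to TMPRSS2 reads within each VCaP library, by treatment and time; points are libraries and bars are group means with SD, and 0 marks equal reads. The ratio falls from 1.17 to 0.26 with R1881 at 8 h and from 0.99 to -0.90 at 22 h, and lies at 0.85 and 0.80 with 2 µM darolutamide.

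Per length of merged exons, ERG stood above TMPRSS2 without androgen and below it after 22 h of androgen. The quotient of their levels in CPM per kilobase was 1.97 at 8 h and 1.74 at 22 h with DMSO. With R1881 it was 1.04 and 0.468. With 500 nM darolutamide it was 1.17 and 0.926, and with 2 µM 1.57 and 1.52. With the length of the representative transcripts instead, it was 1.59 and 1.40 with DMSO and 0.842 and 0.378 with R1881. Which gene was higher with R1881, or with 500 nM darolutamide (0.947), at 8 h thus depends on the length used. From DMSO to R1881 at 22 h, the level per kilobase of merged exons went from 18.6 to 133 for ERG and from 10.7 to 284 for TMPRSS2.

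Between replicates of a group, the deviations of the partners were compared. Over 55 VCaP libraries, their deviations from the group means had r = 0.258 (p = 0.101) and rho = 0.248 (p = 0.102), both by permutation within groups and with adjusted p = 0.102 over 4 relations. Without the 2 libraries farthest from the TMPRSS2 median, r was 0.212. After regression on the leading component of the spread between replicates, r was 0.339 (permutation p = 0.0303) and rho 0.331 (permutation p = 0.0304), both with adjusted p = 0.0608, and r was 0.314 without 2 libraries. None of these passed the threshold after adjustment.

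In LAPC4, TMPRSS2 was expressed without androgen and changed little with it. With DMSO it ranged from 109 to 126 CPM at 8 h (median 114, mean 116 ± 5.22, n = 10) and from 108 to 124 CPM at 22 h (median 117, mean 117 ± 5.37, n = 7). With R1881 it ranged from 127 to 136 CPM at 8 h (median 132, mean 131 ± 2.91, n = 10) and from 159 to 177 CPM at 22 h (median 168, mean 168 ± 5.89, n = 10). The R1881 libraries lay above all DMSO libraries of their time, just so at 8 h. The log2 fold change was 0.18 (SE 0.0247, adjusted p = 2.17e-07) at 8 h. It was 0.52 (SE 0.0274, adjusted p = 8.22e-23) at 22 h, or 1.44-fold, which was number 342 in the order of rises. In this line only 2.64% of genes were called at 8 h and 13.3% at 22 h. At 8 h the call was lost with only the control libraries numbered 6 and above (0.13, adjusted p = 0.0659).

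With 2 µM darolutamide, TMPRSS2 in LAPC4 overlapped the DMSO libraries. At 22 h it was at 138, 131, 135, 138 and 135 CPM with 500 nM (mean 135.5 ± 2.77, n = 5), between and apart from DMSO and R1881. With 2 µM it was at 123, 117, 121, 113 and 129 CPM (mean 121 ± 6.02, n = 5), with 4 of 5 libraries inside the range of DMSO and 1 above it. The log2 fold change against R1881 was -0.31 (adjusted p = 1.38e-11) with 500 nM and -0.48 (adjusted p = 8.12e-19) with 2 µM, where 5.89% and 10.5% of genes were called. Against DMSO, the 500 nM libraries stayed higher by 0.22 (adjusted p = 1.53e-05, with 0.648% of genes called). That call was lost in a fit with the replicate number as a block (0.21, adjusted p = 0.0850). For 2 µM the difference from DMSO was 0.05 (95% interval -0.02 to 0.11, adjusted p = 0.944; 0.0165% of genes called). The doses differed by -0.17 (adjusted p = 0.00918; 0.258% of genes called), a call lost without the 2 µM replicate 4 (-0.15, adjusted p = 0.0543) and in a fit of only these groups (-0.16, adjusted p = 0.456).

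At 8 h in LAPC4, TMPRSS2 was at 123, 111.9, 120.2, 120.5 and 118 CPM with 500 nM (mean 119 ± 4.26, n = 5). With 2 µM it was at 119, 115, 113, 115 and 122 CPM (mean 117 ± 3.61, n = 5). Both doses overlapped DMSO and lay below all R1881 libraries. Against R1881 the log2 fold change was -0.15 with 500 nM (adjusted p = 0.00363; 0.626% of genes called) and -0.17 with 2 µM (adjusted p = 0.000134; 1.54% called). The first call was lost with only the control libraries numbered 6 and above (-0.14, adjusted p = 0.0648). Against DMSO the differences were 0.03 (adjusted p = 0.976) and 0.01 (adjusted p = 1.00), where 0.187% and 0.011% of genes were called. The doses differed by -0.02 (95% interval -0.09 to 0.04), where 0.0275% of genes were called.

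With DMSO, TMPRSS2 in LAPC4 differed between 22 and 8 h by 0.01 (adjusted p = 0.833), where 22.1% of genes were called. With R1881 it was higher at 22 h by 0.35 (adjusted p = 1.68e-17; 20.5% called), and the interaction of treatment and time was 0.34 (adjusted p = 8.88e-10; 3.21% called). The share of the R1881 effect removed at 22 h was 58.7% ± 5.63 with 500 nM and 91.1% ± 13.7 with 2 µM. At 8 h, where the effect itself was small, it was 80.7% ± 28.8 and 93.5% ± 24.2.

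**Figure D4:**
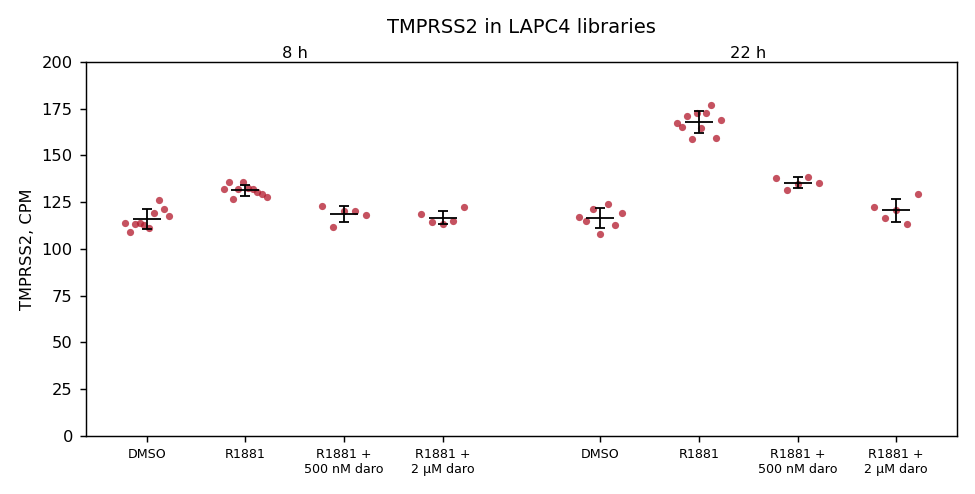
TMPRSS2 in each of 57 LAPC4 libraries, in CPM on a linear axis from 0, by treatment and time; points are libraries and bars are group means with SD. At 22 h the means are 117 (DMSO), 168 (R1881), 135.5 (500 nM) and 121 CPM (2 µM).

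Set side by side in a fit of both lines, TMPRSS2 started lower in VCaP and rose far above LAPC4. On the scale of that fit, DMSO libraries of 8 h had a mean of 59.5 CPM in VCaP and 106 CPM in LAPC4, a difference of -0.84 (adjusted p = 3.01e-55), where 89.2% of genes differed between the lines. At 22 h the means were 77.1 and 109.5 CPM, a difference of -0.51 (adjusted p = 6.61e-32; 87% of genes). The R1881 effect was larger in VCaP by 3.06 at 8 h (adjusted p = 3.85e-93; 48.5% of genes called) and by 4.24 at 22 h (adjusted p = 1.91e-103; 58.5% called). The 2 µM darolutamide effect was more negative in VCaP by -1.10 at 8 h (adjusted p = 6.51e-44; 32.6% called) and by -2.72 at 22 h (adjusted p = 2.70e-79; 48.9% called). The lines differ in many ways besides the fusion, and these cannot be told apart here.

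In the order of the 16 group means on that scale, the groups with DMSO in VCaP were lowest (59.5 and 77.1 CPM). All 8 LAPC4 groups followed, from 106 to 156 CPM, and the VCaP groups with R1881 came last, up to 2071 CPM with R1881 at 22 h. Neighbours whose libraries overlapped were the low LAPC4 groups (DMSO at both times, both doses at 8 h and 2 µM at 22 h), LAPC4 with R1881 at 8 h and with 500 nM at 22 h, and VCaP with 2 µM at 22 and 8 h. For ERG in VCaP the order ran from DMSO at 8 and 22 h over 2 µM at 22 and 8 h, 500 nM at 8 h, R1881 at 8 h and 500 nM at 22 h to R1881 at 22 h. In it, R1881 at 8 h overlapped both of its neighbours.

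Among the ETS family, ERG was one of the leading members in VCaP. Of the summed level per length of 28 ETS genes, ERG made up 9.27% ± 1.13 with DMSO at 8 h and 9.83% ± 0.871 at 22 h. With R1881 it made up 18.1% ± 3.45 and 24.9% ± 4.05, second to SPDEF, a prostate epithelial ETS factor. At 22 h with R1881, SPDEF had 306.5 and ERG 133 CPM per kilobase. With 500 nM darolutamide the ERG share was 23.8% at 8 h and 29.3% at 22 h, and with 2 µM it was 22.1% and 22.7%. The share thus did not fall below that of R1881 at 8 h with either dose, nor at 22 h with 500 nM. With 500 nM at 22 h, SPDEF had 107 and ERG 84.6 CPM per kilobase. In LAPC4 the ERG share was at most 0.00262% in any library, and EHF, another epithelial ETS factor, reached 90.5 CPM per kilobase with R1881 at 22 h.

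Of the 27 other ETS genes, 20 were tested in VCaP. With R1881 at 22 h, 6 rose and 5 fell, with a median log2 fold change of 0.04, while over all genes 37.4% rose and 40.01% fell with a median of -0.03. SPDEF rose by 2.40 (SE 0.207), from a mean of 111.6 to 587 CPM, and ETV6, a repressor, rose by 1.27 (SE 0.0553). The largest falls by the rule were ELK3, by 1.83 (SE 0.0651), and ETS2, by 1.33 (SE 0.0678), which lies next to ERG on the chromosome. EHF fell by 0.22 (SE 0.0360). FLI1, the closest relative of ERG, had at most 2 reads in any library of either line, and ETV1, another fusion partner of TMPRSS2, at most 8. With 2 µM darolutamide against R1881 at 22 h, 4 rose and 10 fell (median -0.25), beside 36.1% and 30.8% over all genes, with SPDEF at -2.11, ETV6 at -1.07, ELK3 at 1.38 and ETS2 at 1.13. In LAPC4, 3 of 21 tested rose and 0 fell with R1881 at 22 h, beside 6.83% and 6.45% over all genes. They were ETS1, by 1.53, ETS2, by 0.50, and EHF, by 0.27. ETS2 thus fell in VCaP and rose in LAPC4.

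Among 18 type II transmembrane serine proteases, TMPRSS2 became dominant in VCaP. It made up 23.4% and 28.4% of their summed level per length with DMSO at 8 and 22 h, and 76.0% and 87.4% with R1881. With 500 nM darolutamide the share was 74.4% and 73.1%, and with 2 µM 58.5% and 50.2%. In LAPC4 it was 21.8 to 30.3% in the group means, second to ST14 (matriptase). Of 17 others, 5 were tested in VCaP, and with R1881 at 22 h 1 rose and 2 fell, with a median of -0.17, beside 37.4% and 40.01% over all genes. ST14 rose by 0.78 (SE 0.135), from 68.7 to 118 CPM, and HPN (hepsin), a protease of prostate cancer cells, was at 33.5 CPM with DMSO and 39.7 CPM with R1881 (log2 fold change 0.26, SE 0.194, adjusted p = 0.225). SPINT1 and SPINT2, the Kunitz-type inhibitors of these proteases, rose by 0.70 (SE 0.0663) and 0.59 (SE 0.0410) at 22 h. With 2 µM darolutamide they were lower than with R1881, with log2 fold changes of -0.57 and -0.41.

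Most of the genes tested between the partners fell where the partners rose. Of 16, 15 were tested in VCaP, and with R1881 at 22 h 1 rose and 11 fell, with a median of -0.63, beside 37.4% rising and 40.01% falling over all genes. At 8 h, 3 rose and 11 fell (median -0.56), beside 32.8% and 34.1% over all genes. FAM3B, which encodes a secreted protein and lies near TMPRSS2, rose by 0.32 (SE 0.0366). The largest fall was that of B3GALT5, a glycosyltransferase, from 59.1 to 4.49 CPM or by 3.72 (SE 0.0675). PCP4, a calmodulin-binding peptide, fell by 2.00 (SE 0.0797), BACE2, a relative of the β-secretase, by 1.27 (SE 0.0323), and BRWD1, a bromodomain protein, by 0.63 (SE 0.0450). With 2 µM darolutamide against R1881 at 22 h, 9 rose and 5 fell (median 0.26), beside 36.1% and 30.8% over all genes, with B3GALT5 at 1.77, PCP4 at 1.74, BACE2 at 0.84 and BRWD1 at 0.26. MX1, the interferon-induced GTPase that overlaps the end of TMPRSS2, fell by 1.73 with R1881, while TMPRSS2 rose. MX1 had 5 to 15 reads per VCaP library with R1881 at 22 h. In LAPC4, 1 of 11 tested rose and 1 fell with R1881 at 22 h, beside 6.83% and 6.45% over all genes.

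**Figure D5:**
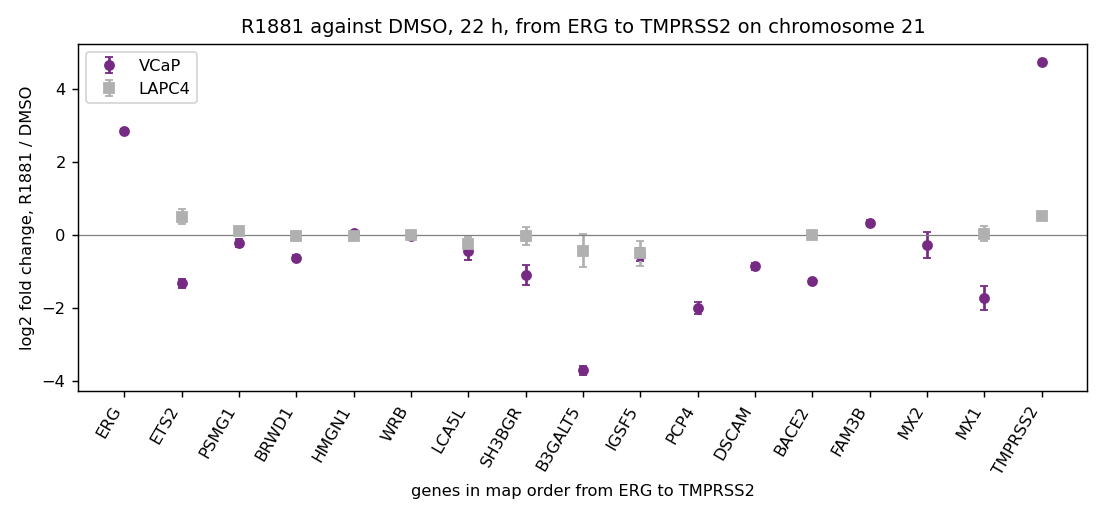
Log2 fold changes for R1881 against DMSO at 22 h in VCaP (circles) and LAPC4 (squares), with 95% intervals. Shown are ERG, TMPRSS2 and the tested genes that start between them, in map order from ERG to TMPRSS2. ERG was not tested in LAPC4. In VCaP the partners at either end rise by 2.84 and 4.73, while 11 of 15 tested genes between them fall.

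Genes tied in the literature to ERG in fusion-positive prostate cancer held both rises and falls. Of 19 such genes, chosen from general knowledge, 17 were tested in VCaP, and with R1881 at 22 h 7 rose and 7 fell (median 0.03), beside 37.4% and 40.01% over all genes. CRISP3, a secreted protein of prostate cancer, rose from 256 to 780 CPM, by 1.60 (SE 0.0440), and KCNH8, a potassium channel, rose by 1.22 (SE 0.0917). TFF3, a mucosal peptide, fell by 1.39 (SE 0.227), and NCALD, a calcium sensor, by 0.70 (SE 0.0485). With 2 µM darolutamide against R1881 at 22 h, 7 rose and 8 fell (median 0.07), beside 36.1% and 30.8% over all genes, with CRISP3 at -1.08, KCNH8 at -1.16, TFF3 at 1.21 and NCALD at 0.45. In LAPC4, where ERG was not detected beyond 1 read, 3 of 15 tested rose and 5 fell with R1881 at 22 h, beside 6.83% and 6.45% over all genes.

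Transcription factors that open chromatin in prostate cells were read beside the partners. In VCaP with R1881, GATA2, a pioneer factor, fell by 1.58 (SE 0.0861) at 8 h and by 1.23 (SE 0.0917) at 22 h. FOXA1, the main pioneer factor of luminal prostate cells, fell in VCaP by 0.25 (SE 0.0248) at 8 h and rose by 0.18 (SE 0.0270) at 22 h. In LAPC4 it fell by 0.09 (SE 0.0178) at 8 h and by 0.15 (SE 0.0196) at 22 h.

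Genes with the pattern most like a partner were sought by the distance between 8 group means of log2 CPM, each centred on its own mean, among 9632 VCaP genes above the median level. Closest to TMPRSS2 were RFPL2 (distance 1.18), ACSL3 (1.22), ALDH1A3 (1.22), AGR2 (1.34) and LIPG (1.37), with ERG at number 17 (distance 1.75, r = 0.978 over 8 means). Closest to ERG was BMPR1B, a receptor for bone morphogenetic proteins, at a distance of 0.209 (r = 0.997). It rose with R1881 by 2.43 at 8 h and 2.88 at 22 h, beside 2.36 and 2.84 for ERG, and had -1.41 with 2 µM darolutamide at 22 h, beside -1.43. Next to ERG came ZNF761 (0.328), RP11-134K13.2 (0.485), RP11-447H19.3 (0.516) and RP11-312J18.5 (0.521), and TMPRSS2 was number 237. In LAPC4 the genes nearest to TMPRSS2 among 9101 were ASRGL1 (0.119), CRAT (0.125), HMGA1 (0.127), PXDN (0.128) and TGFBR3 (0.129). ASRGL1, an asparaginase-like enzyme, rose by 0.55 with R1881 at 22 h, beside 0.52 for TMPRSS2.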

How the data were processed

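RNA had been extracted from both cell lines with DNA digestion on the column, kept at an RNA integrity number above 8, made into stranded poly-A libraries and sequenced as single-end reads. The authors used STAR for alignment to GRCh38 and featureCounts for gene counts, and the deposited values are these raw counts. Annotation, strand setting and the handling of multiply aligned reads are not given in the sources used here. Groups and replicate numbers came from the sample labels.

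Levels and log2 fold changes were computed in R 4.3.3 with edgeR 4.0.16 (glmQLFit, glmQLFTest, TMM, Benjamini-Hochberg). Genes tested had 10 or more reads in 4 or more of a line's libraries. The 8 groups of a line were fitted together, and 16 groups for comparisons between lines. Ratios, shares, levels per length, correlations, nearest genes, permutation tests and Dixon's test were computed in Python 3.11.15 with scipy 1.17.1. Standard errors were obtained as |log2 fold change| over the root of the F statistic. Log2 CPM used a prior count of 2. Single values were compared by two-sided permutation tests, exact by enumeration except 100000 permutations where both groups held 10 libraries. The scripts were tested on simulated data.

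TMPRSS2 and ERG, the gene lists and the rule for genes named were chosen with earlier results of these data known. The rule names, per list, the 2 largest rises and 2 largest falls with R1881 in VCaP at 22 h among called genes with a mean log2 CPM above 0, a fixed set of relatives, neighbours and pioneer factors, and the 5 nearest genes by pattern. ETS1 was named after its values were seen. The alternatives were DESeq2 1.42.0, other scalings and filters, fits of the compared groups, subsets of control libraries, a replicate block, a residual component as covariate, and leaving out each library of the groups of up to 5. Results for some genes of the lists are not reported here. ChIP-seq and other assays were not analysed here.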

Additional observations from a re-analysis of the deposited data

Results flagged for a closer look

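The effect of R1881 differed between times by a test of the interaction itself. In VCaP it was larger at 22 than at 8 h by 1.45 for TMPRSS2 and by 0.47 for ERG on the log2 scale, and in LAPC4 by 0.34 for TMPRSS2. It also differed between lines by the same kind of test. For TMPRSS2, the R1881 effect in VCaP exceeded that in LAPC4 by 3.06 at 8 h and by 4.24 at 22 h. The effect of 2 µM darolutamide against R1881 differed by -1.10 at 8 h and by -2.72 at 22 h. By Dixon's test, 0 libraries stood apart in the 24 sets of 1 gene in 1 group that were examined, TMPRSS2 in both lines and ERG in VCaP.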

How the results depend on the processing

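Of 525 log2 fold changes of TMPRSS2 and ERG recomputed under alternatives, 513 kept their direction and their side of the threshold, as did 186 of 188 with 1 library left out. For ERG in VCaP, 500 nM darolutamide against R1881 at 8 h was not called with library totals (-0.045), with only the groups compared (-0.11) or with the replicate block (-0.067, adjusted p = 0.481). For TMPRSS2 in LAPC4, the calls lost were 2 µM against 500 nM at 22 h with only the groups compared (-0.16) and with the replicate block (-0.17), with a range of -0.19 to -0.15 when single libraries were left out. Others were 500 nM against DMSO at 22 h with the replicate block (0.21, adjusted p = 0.0850), 500 nM against R1881 at 8 h with control replicates 6 and above (-0.14) and with the block (-0.17), and R1881 against DMSO at 8 h with control replicates 6 and above (0.13). Uncalled values that changed sign with control replicates 6 and above were 2 µM against DMSO at 8 h (-0.034), 500 nM against DMSO at 8 h (-0.0100) and DMSO at 22 against 8 h (-0.039), and the first ranged from -0.0072 to 0.018 with 1 library left out. The cause was not tested. Library totals moved the median of all genes by -0.14 for R1881 against DMSO in VCaP at 8 h, by -0.11 at 22 h and by 0.11 for 2 µM against R1881 at 8 h.

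The replicate numbers were not taken as a pairing. Same-numbered libraries had deviations with a mean correlation of -0.0167 over 149 VCaP pairs and 0.130 over 161 LAPC4 pairs. Single pairs ran from -0.882 to 0.874 in VCaP and from -0.905 to 0.931 in LAPC4. Of them, 60 in VCaP and 85 in LAPC4 were above 0.1, so the means do not show whether some groups were paired. Under the block, with too few pairs to pass the threshold (smallest p 0.0625 with 5 pairs and 0.125 with 4), the ERG to TMPRSS2 log2 ratio at 22 and 8 h changed by -0.21 and -0.34 for 2 µM against DMSO, 0.70 and 0.42 for 2 µM against 500 nM, 1.67 and 0.62 for 2 µM against R1881, -0.93 and -0.78 for 500 nM against DMSO, and 0.95 and 0.22 for 500 nM against R1881. With control replicates 6 and above the ratio changed by -1.90 for R1881 against DMSO at 22 h (permutation p = 0.0571). It changed by -0.88 for 500 nM against DMSO at 22 h (permutation p = 0.0571) and by -0.18 for DMSO at 22 against 8 h (permutation p = 0.107). None of these passed the threshold with so few libraries.

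The share of the R1881 effect removed moved with the scale. On linear CPM in VCaP at 22 and 8 h it was 92.0% and 65.2% (2 µM) and 70.5% and 20.4% (500 nM) for TMPRSS2, and 73.1% and 46.3% (2 µM) and 42.3% and 10.0% (500 nM) for ERG. With library totals it was 25.2% (2 µM, 8 h), 20.4% (500 nM, 22 h) and 1.87% (500 nM, 8 h) for ERG, and 36.9%, 33.4% and 6.81% for TMPRSS2. With control replicates 1 to 5 ERG had 27.1% (2 µM, 8 h) and 3.002% (500 nM, 8 h), and with 6 and above 6.89% (500 nM, 8 h), while TMPRSS2 in LAPC4 had 122% (2 µM, 8 h).

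By Pearson correlation in place of distance, 1 of the 5 nearest genes was shared for TMPRSS2 in VCaP, 2 for ERG and 1 for TMPRSS2 in LAPC4. Of the shares of genes called that are given as background, 73 of 364 moved by over 1.5 times, mostly in LAPC4 and mostly with the residual component as covariate. In LAPC4 the number called with R1881 against DMSO was 2418 at 22 h (813 to 4974 over the alternatives) and 481 at 8 h (214 to 2243), and for 2 µM against R1881 it was 1906 (1299 to 5134) and 281 (106 to 1476). For 500 nM against R1881 it was 1072 (781 to 2929) and 114 (9 to 504), for 2 µM against 500 nM 47 (8 to 491) and 5 (2 to 188), for 500 nM against DMSO 118 (40 to 1895) and 34 (1 to 1336), and for 2 µM against DMSO 3 (1 to 1320) and 2 (1 to 1455). Between times it was 4020 with DMSO (1351 to 7184), 3732 with R1881 (1767 to 6744) and 584 for the interaction (146 to 3344). In VCaP the counts that moved so were 5897 for 500 nM against R1881 at 8 h (2419 with the block), 5289 for 2 µM against DMSO at 8 h (3363 with the block), 3889 and 3386 for 2 µM against 500 nM at 22 and 8 h (up to 6114 and 5229), and 5739 for DMSO at 22 against 8 h (down to 3492).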
